A study of Rattus norvegicus with 6 samples.

Results

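The glycolysis enzymes described here were 10 genes of sugar breakdown, taken in pathway order: Hk2, Gpi, Pfkfb3, Aldoa, Tpi1, Gapdh, Pgk1, Eno1, Pkm and Ldha. Their probes were found by matching the RefSeq accession printed beside each probe in the array files to rat gene symbols, and each probe was kept apart. This gave 15 probes among 30367 gene probes, and 10 genes among the 15168 genes with at least 1 probe. The RNA came from primary Leydig cells of Sprague-Dawley rats, the steroid-producing cells between the seminiferous tubules of the testis. All 6 cultures were grown at 34 °C and 5% CO2 in F12/DMEM that held 10% fetal bovine serum. The exosome group, 3 samples, spent 24 h with vesicles (5 µg/ml) that had been shed by primary Sertoli cells of rat. The untreated group, 3 samples that the labels call the reference, received no exosomes, and the labels name no vehicle. The labels number the replicates without stating their origin, whether animal or culture, and p-values here therefore reflect no more than the spread among the arrays, which may be technical.

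Glycolysis splits glucose into pyruvate in the cytosol and yields ATP and NADH. The early steps phosphorylate the sugar and cut it into triose phosphates, the later steps return ATP, and lactate dehydrogenase turns pyruvate into lactate while regenerating NAD+. In the testis, Sertoli cells are known for making lactate that germ cells use, and Leydig cells need ATP and reducing power for the synthesis of testosterone from cholesterol.

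Each sample was read on 1 one-colour array of 44254 spots. The share of gene spots well above background was 67.2% to 72.2% on exosome arrays and 72.6% to 75.6% on untreated ones. No spot was saturated. Arrays correlated at r of 0.984 to 0.994 within a group and 0.969 to 0.983 between groups. Per the file headers, the 3 untreated arrays shared 1 scan time, exosome 1 and 2 shared another and exosome 3 had its own, so scan and group cannot be told apart. Levels below are log2 processed intensity minus the 75th percentile of the array, so that 0 stands for that percentile. Differences are exosome minus untreated on this scale, ± the SE of the limma fit, which borrows spread from all tested probes. Each group had 3 arrays, or fewer where an outlier-marked spot was left out. Adjusted p-values come from limma with Benjamini-Hochberg over all 20433 tested probes. On this scale the median difference over all tested probes was −0.26, and each member is also given relative to that median. A level says nothing about the level of another probe. In these bulk samples, fewer cells of a type and less RNA per cell cannot be told apart.

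Exosome-treated cells held less mRNA of 7 of the 10 enzymes by at least 1 probe, from the hexokinase that starts the pathway to the pyruvate kinase that makes pyruvate, a count that was 5 under quantile normalization and 0 under centring on the array median. The probes that fell belonged to Hk2, Gpi, Pfkfb3, Aldoa, Gapdh, Eno1 and Pkm, by 0.50 to 1.02 on the log2 scale. Tpi1, Pgk1 and Ldha did not pass the test in either direction. Of the 15 member probes, 14 were tested, because 1 Pkm probe was above background on 0 arrays, and 12 were above background on all 6. Of the 14, 7 (50.0%) passed the test at an adjusted p below 0.05 as lower, where 30.8% of all tested probes did so. None passed as higher, where 11.5% of all tested probes did at that adjusted p, and 0 member probes were higher at an unadjusted p below 0.05 (limma). Among the 13 member probes with a value on every array, all exosome arrays lay below all untreated arrays for 7, and above for 0. The same held below for 40.1% and above for 18.8% of all tested probes. Without any scaling between arrays, 4 member probes had all exosome intensities below all untreated ones (Hk2, Pfkfb3, Gapdh and Eno1), beside 19.6% of all probes, and 1 had them above (Pgk1), beside 29.4%. The median difference of the 14 probes was −0.36, and the 7 that passed lay below the median of all probes while the 7 that did not pass lay above it.

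**Figure D1:**
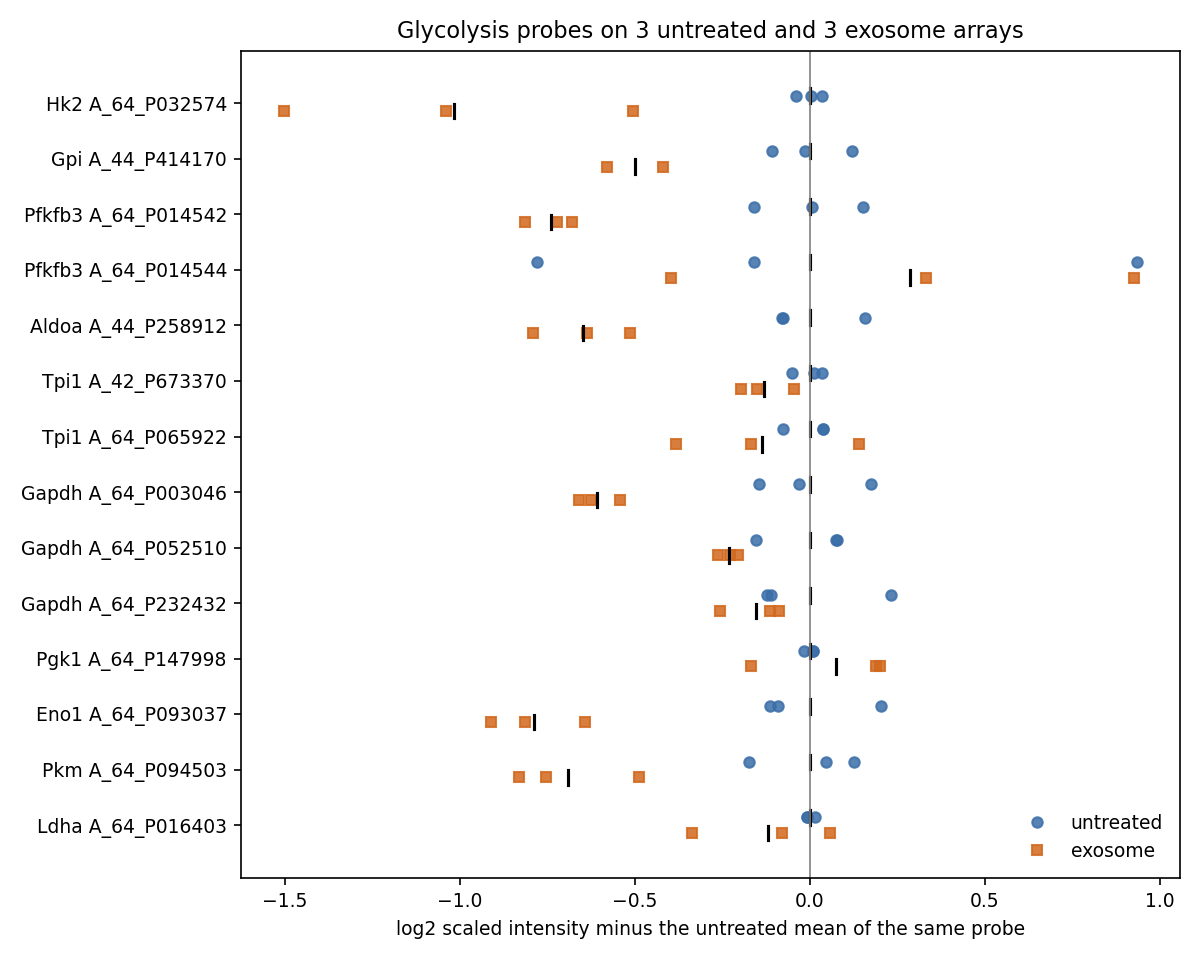
Each row is 1 tested glycolysis probe in pathway order, and the x axis gives log2 scaled intensity minus the untreated mean of that probe. Circles are the 3 untreated and squares the 3 exosome arrays, black bars are group means, and Gpi lacks exosome 3, whose spot was marked as an outlier. Squares lie left of all circles for 7 of the 13 probes with 6 values, and for the 2 exosome arrays of Gpi.

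Hk2 encodes hexokinase 2, which phosphorylates glucose as it enters the cell. Its level was −2.04, −2.01 and −2.09 in untreated 1 to 3 and −3.55, −3.09 and −2.55 in exosome 1 to 3. The untreated arrays lay within a narrow band, and the exosome arrays lay below it and far apart from each other (SD 0.50 against 0.04). Hk2 fell by 1.02 ± 0.25 (adjusted p = 0.021), or 2.02-fold, the widest difference among the member probes, and by 0.75 relative to the median of all probes. Its intensities of 85.8 to 211 units were well above background on every array.

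Gpi, glucose-6-phosphate isomerase, converts the product of hexokinase to fructose-6-phosphate. Its level was 4.03, 3.94 and 4.17 in the untreated arrays and 3.47 and 3.63 in exosome 1 and 2. The spot on exosome 3 read 12.3 units where the other 5 arrays read 11112 to 14265, and it was marked as an outlier in the file and left out. On the remaining 5 arrays the groups did not overlap, and the difference was −0.50 ± 0.15 (adjusted p = 0.040), −0.24 relative to the median. With that spot kept the difference was −3.72 (adjusted p = 0.26), and in the authors' deposited log2 table, where exosome 3 stands at 4.03 and the other arrays at 13.3 to 14.0, it was −3.58 (adjusted p = 0.30).

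Pfkfb3 encodes an enzyme that makes fructose-2,6-bisphosphate, an activator of phosphofructokinase, and so tunes the committed step without being part of the chain. Probe A_64_P014542 read −2.75, −2.59 and −2.44 in the untreated arrays and −3.41, −3.32 and −3.27 in the exosome arrays. The groups did not overlap and the exosome arrays lay close together. This probe fell by 0.74 ± 0.13 (adjusted p = 0.012), or 1.67-fold, and by 0.48 relative to the median. The other Pfkfb3 probe, A_64_P014544, was above background on 1 untreated and 2 exosome arrays, at intensities of 8.27 to 32.7 units, and its groups overlapped. Its difference was 0.29 ± 0.50 (adjusted p = 0.66), with the widest SE of the member probes.

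Aldoa, aldolase A, cuts fructose-1,6-bisphosphate into the triose phosphates. Its level was 2.77, 2.77 and 3.00 in the untreated arrays and 2.21, 2.33 and 2.06 in the exosome arrays. Every exosome array lay below every untreated one after scaling, while the unscaled intensities overlapped. Aldoa fell by 0.65 ± 0.13 (adjusted p = 0.015), or 1.57-fold, and by 0.39 relative to the median.

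Tpi1, triosephosphate isomerase, interconverts the triose phosphates so that the whole sugar can go on. Probe A_42_P673370 read 5.74, 5.80 and 5.83 in the untreated arrays and 5.64, 5.59 and 5.74 in the exosome arrays. Probe A_64_P065922 read 6.16, 6.28 and 6.28 against 6.07, 5.86 and 6.38. The groups overlapped for both probes. Their differences were −0.13 ± 0.11 (adjusted p = 0.36) and −0.14 ± 0.16 (adjusted p = 0.51), both above the median of all probes, by 0.13 and 0.12.

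Gapdh, glyceraldehyde-3-phosphate dehydrogenase, carries out the step that yields NADH and is often used as a reference gene. Its 3 probes, all assigned to the same RefSeq transcript, did not give the same result. Probe A_64_P003046 read 6.21, 6.32 and 6.53 in the untreated arrays and 5.73, 5.81 and 5.69 in the exosome arrays, without overlap, before scaling too. It fell by 0.61 ± 0.13 (adjusted p = 0.015), or 1.53-fold. Probe A_64_P052510 read 5.65, 5.43 and 5.66 against 5.35, 5.32 and 5.37, also without overlap, but with a smaller difference of −0.23 ± 0.12 that missed the test (adjusted p = 0.15). Probe A_64_P232432 read 4.58, 4.23 and 4.22 against 4.09, 4.26 and 4.23, and here only untreated 1 stood above the rest. Its difference was −0.15 ± 0.14 (adjusted p = 0.41). Relative to the median of all probes the 3 differences were −0.35, 0.03 and 0.11. The RefSeq table lists 81 pseudogenes named after Gapdh, more than after any other member (Eno1 31, Ldha 30, Pkm 19, Aldoa 9, Pgk1 8, Tpi1 3 and none for Hk2, Gpi and Pfkfb3). Whether a probe also binds transcripts of such copies was not tested, since probe sequences were not used here.

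Pgk1, phosphoglycerate kinase 1, makes the first ATP of the later steps. Its level was 6.11, 6.13 and 6.13 in the untreated arrays and 6.33, 5.96 and 6.31 in the exosome arrays, so that exosome 2 lay below and exosome 1 and 3 above the untreated band. The difference was 0.07 ± 0.14 (adjusted p = 0.69), or 0.34 above the median of all probes. Before scaling its intensities were 59986, 54690 and 52681 units in the untreated arrays and 80482, 65670 and 68085 in the exosome arrays. It was the member probe whose unscaled exosome intensities all lay above the untreated ones.

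Eno1, enolase 1, forms phosphoenolpyruvate. Its intensities were 23550, 21444 and 25329 units in the untreated arrays and 16715, 19852 and 13350 in the exosome arrays, which gave scaled levels of 4.76, 4.78 and 5.08 against 4.06, 4.23 and 3.96. The groups did not overlap with or without scaling. Eno1 fell by 0.79 ± 0.14 (adjusted p = 0.012), or 1.73-fold, and by 0.53 relative to the median. Its call held whichever single array was left out, with adjusted p between 0.012 and 0.049, which was so for no other member probe. It was lost with centring on the array median (−0.38, adjusted p = 0.071) and with a minimum of 2-fold.

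Pkm, the pyruvate kinase of most tissues, makes pyruvate and ATP. Probe A_64_P094503 read 2.14, 1.92 and 2.22 in the untreated arrays and 1.34, 1.61 and 1.27 in the exosome arrays. Every exosome array was below every untreated one after scaling, although the unscaled intensities overlapped. The probe fell by 0.69 ± 0.15 (adjusted p = 0.016), or 1.61-fold, and by 0.43 relative to the median. The other Pkm probe, A_64_P024077, was not well above background on any of the 6 arrays, at 7.92 to 14.8 units, and was not tested.

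Ldha, lactate dehydrogenase A, favours the conversion of pyruvate to lactate. Its level was 6.18, 6.21 and 6.18 in the untreated arrays and 6.11, 5.86 and 6.25 in the exosome arrays. Exosome 3 lay above all untreated arrays and the other exosome arrays lay below. The difference was −0.12 ± 0.14 (adjusted p = 0.50), or 0.14 above the median of all probes.

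How many members passed depended on the scaling and on single arrays. Quantile normalization brought the median of all probes to −0.04, and the calls over all probes to 3406 higher and 3369 lower. Of the calls, 49.7% were lower, against 72.8% on the 75th percentile scale with 2344 higher and 6289 lower. Of all tested probes, 16.5% were called lower under quantile normalization, against 30.8% on the 75th percentile scale. There Aldoa, Eno1, Gapdh A_64_P003046, Pfkfb3 A_64_P014542 and Pkm passed as lower, and Hk2 (−0.74, adjusted p = 0.064) and Gpi (−0.46, adjusted p = 0.056) missed. The authors' deposited table gave the same 5 members. Centring on the array median moved the median of all probes to 0.15 and the calls to 5542 higher and 1810 lower (24.6% of the calls and 8.86% of all tested probes were lower). There no member passed as lower (limma; 2 at an unadjusted p below 0.05), and Pgk1 passed as higher (0.49, adjusted p = 0.046). The 7 probes that fell on the 75th percentile scale kept their sign under median centring (−0.60 for Hk2 to −0.09 for Gpi), while both Tpi1 probes, the other Gapdh probes and Ldha turned to between 0.18 and 0.29. With 1 array left out, 1 member passed as lower without untreated 2 (Eno1), and 2 passed without untreated 3 and without exosome 1 (Eno1 and Pfkfb3 A_64_P014542). Without those arrays the lower calls over all probes also dropped, to 1615, 1778 and 2763. Without untreated 1, without exosome 2 and without exosome 3, the members that passed as lower numbered 6, 6 and 7.

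**Figure D2:**
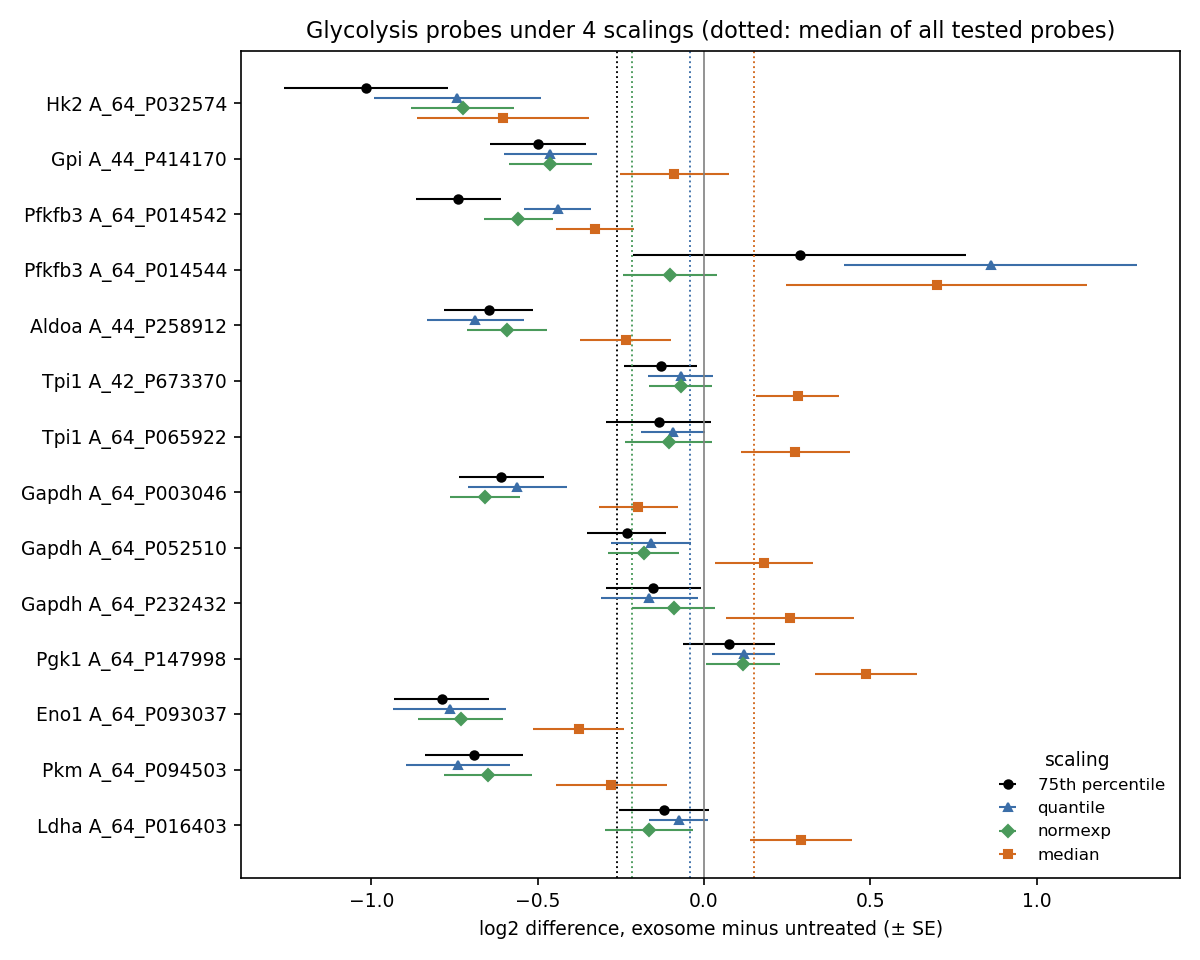
Each row is 1 tested glycolysis probe, the x axis gives the log2 difference, exosome minus untreated, and bars are ± SE. The 4 markers are scaling by the 75th percentile, quantile normalization, normexp background correction and median centring, and each dotted line is the median difference of all tested probes under that scaling (−0.26, −0.04, −0.22 and 0.15). Median centring shifts every probe to the right, past 0 for Tpi1, Ldha and the Gapdh probes A_64_P052510 and A_64_P232432.

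A ratio of 2 probes on the same array carries no scaling between arrays. For 13 such pairs of member probes, chosen with their values known, the log2 ratio was compared between groups, and for 9 of them the groups did not overlap. The share over all pairs of probes was not worked out. Most pairs of different genes set a probe that passed as lower over 1 that did not pass, so groups apart were likely from the choice of pairs. Among single scaled probes, all exosome arrays lay below all untreated arrays for 40.1% and above for 18.8%, which are not shares of ratios. With 3 arrays against 3, an exact two-sided permutation test cannot give less than p = 0.1, and each of the 9 reached that value (0.14 after Benjamini-Hochberg over the 13). Eno1 over Ldha was −1.43, −1.43 and −1.11 in the untreated arrays and −2.06, −1.62 and −2.29 in the exosome arrays, a change of −0.67. Eno1 over Pgk1 changed by −0.86, Aldoa over Pgk1 by −0.72, Pkm over Pgk1 by −0.76, Hk2 over Ldha by −0.90 and Aldoa over Ldha by −0.53, each without overlap. Pkm over Ldha changed by −0.57, with exosome 2 inside the untreated range. Since the pairs were picked with their values known, these ratios are a description, and they do not tell which side of a ratio moved. Eno1 over Aldoa, which both fell, was 1.99, 2.02 and 2.07 against 1.85, 1.90 and 1.91, a change of −0.14. Ldha over Pgk1 changed by −0.19.

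Between probes of 1 gene, Gapdh A_64_P003046 over A_64_P052510 was 0.55, 0.90 and 0.87 in the untreated arrays and 0.37, 0.49 and 0.32 in the exosome arrays. These groups did not overlap, and the ratio changed by −0.38. The ratios of these probes to A_64_P232432 changed by −0.46 and −0.08, and in both the groups overlapped (exact permutation p = 0.2 and 0.6). The ratio of the Tpi1 probes changed by 0.01 (exact permutation p = 1).

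**Figure D3:**
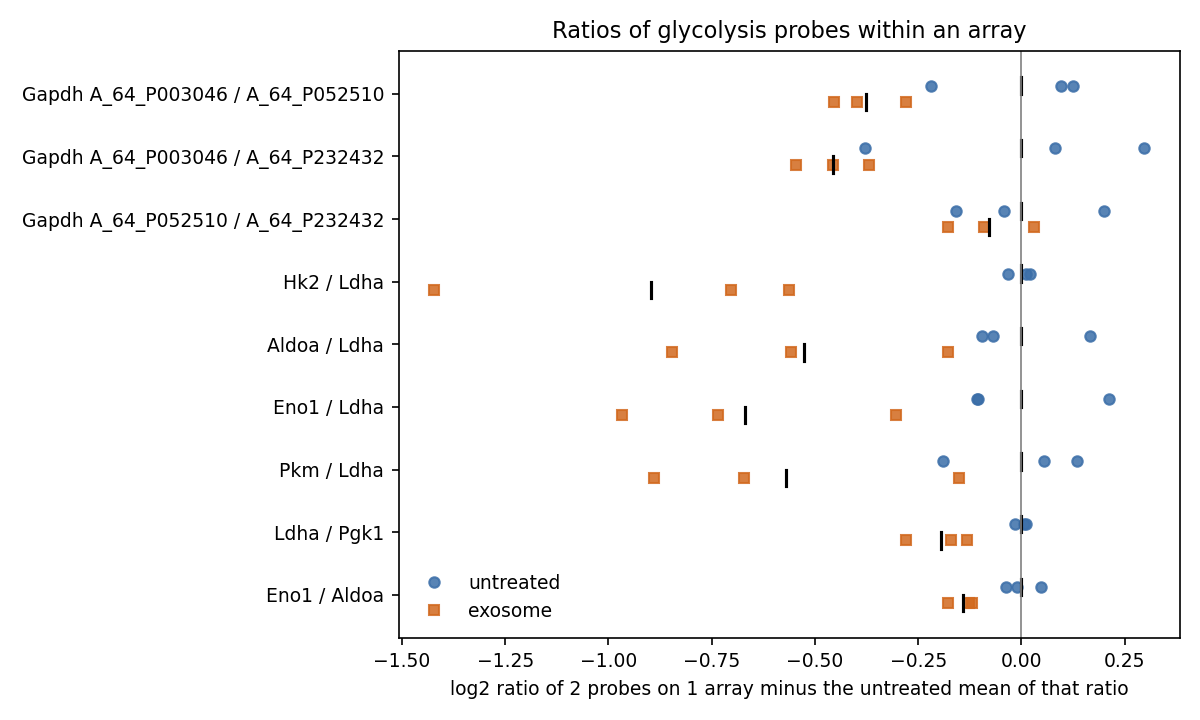
Each row is the log2 ratio of 2 glycolysis probes on 1 array, with the untreated mean of that ratio set to 0 on the x axis. Circles are untreated and squares exosome arrays, and black bars are group means. The groups do not overlap for the Gapdh ratio in the top row or for Hk2, Aldoa and Eno1 over Ldha. Neither do they for Ldha over Pgk1 and Eno1 over Aldoa, and they overlap in the other rows.

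Several glycolysis genes are textbook targets of the hypoxia-inducible factors, which bind the core letters ACGTG or GCGTG, and of Myc and related factors, which bind CACGTG. RefSeq promoter windows of rat assembly GRCr8, 300 bases from 250 before to 50 after an annotated start, matched 9 of the 10 members in 12 windows; Pgk1 was not matched. On both strands, ACGTG or GCGTG was found in 7 of the 12 windows, of 6 genes, and in 41.6% of all 33469 windows. CACGTG was found in the windows of Pfkfb3 and Ldha, and in 6.42% of all windows, and each CACGTG also counts as ACGTG on both strands. The windows below are shown because they set members that fell (Hk2, Pfkfb3 and Eno1) beside one that did not pass the test (Ldha). Capitals mark the motifs on either strand, so that CACGT and CACGC are ACGTG and GCGTG read on the other strand.
Hk2, chr4:116841226-116841525, minus strand: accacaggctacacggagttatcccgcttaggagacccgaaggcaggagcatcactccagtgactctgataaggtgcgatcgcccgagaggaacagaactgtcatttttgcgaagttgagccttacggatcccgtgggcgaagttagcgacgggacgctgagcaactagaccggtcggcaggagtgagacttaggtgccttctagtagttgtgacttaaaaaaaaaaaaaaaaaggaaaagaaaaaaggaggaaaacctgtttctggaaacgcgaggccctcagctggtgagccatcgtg
Pfkfb3, chr17:71944683-71944982, plus strand: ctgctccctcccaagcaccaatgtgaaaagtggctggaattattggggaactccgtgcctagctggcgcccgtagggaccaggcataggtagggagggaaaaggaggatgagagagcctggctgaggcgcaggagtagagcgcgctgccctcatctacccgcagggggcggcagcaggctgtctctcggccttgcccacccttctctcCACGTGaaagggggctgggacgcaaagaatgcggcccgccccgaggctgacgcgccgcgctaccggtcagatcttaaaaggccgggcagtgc
Eno1, chr5:166003111-166003410, plus strand: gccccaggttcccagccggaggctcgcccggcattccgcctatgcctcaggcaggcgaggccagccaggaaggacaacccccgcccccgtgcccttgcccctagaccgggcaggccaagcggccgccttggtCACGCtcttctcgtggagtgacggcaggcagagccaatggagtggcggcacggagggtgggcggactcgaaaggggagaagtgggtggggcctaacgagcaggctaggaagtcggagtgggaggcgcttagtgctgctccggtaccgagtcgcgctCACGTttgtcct
Ldha, chr1:106507842-106508141, plus strand: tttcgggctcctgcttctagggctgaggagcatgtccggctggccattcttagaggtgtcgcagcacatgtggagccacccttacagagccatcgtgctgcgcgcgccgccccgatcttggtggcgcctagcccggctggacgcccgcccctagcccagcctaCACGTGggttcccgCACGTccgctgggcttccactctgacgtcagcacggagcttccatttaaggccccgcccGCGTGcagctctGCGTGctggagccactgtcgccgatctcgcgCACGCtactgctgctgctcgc
The Ldha window holds 3 matches to ACGTG and 3 to GCGTG, counted on both strands, Pfkfb3 2 and 0, Eno1 1 and 1, and Hk2 0 of either. The other Eno1 window holds 0 and 1. Of the members not shown, Gapdh holds 1 and 2, and Gpi and 1 Aldoa window hold 1 and 0. Pkm, the other Aldoa windows and Tpi1, which did not pass the test, hold 0 of either. A match is a run of letters and not a measured site.

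The other isozymes and regulators of glycolysis differed in both directions. Of 26 genes in this list, chosen with earlier results of these data known, 24 had a probe and 20 were tested, with 7 lower and 2 higher, where 29.0% of all tested genes were lower and 14.6% higher. Quantile normalization gave 4 lower and 4 higher in this list, and median centring 1 and 8. The list's median difference was 0.10, against −0.19 for all tested genes. Pgam2, the muscle form of phosphoglycerate mutase, read −2.66, −2.59 and −2.33 in the untreated arrays and −4.37, −4.34 and −3.96 in the exosome arrays. It fell by 1.70 ± 0.16 (adjusted p = 0.010), while Pgam1, the widespread form, differed by 0.23 ± 0.16 (adjusted p = 0.28). Eno2, the enolase known from neurons, fell by 0.84 ± 0.18 (adjusted p = 0.016), close to the 0.79 of Eno1. Pfkl, a subunit of phosphofructokinase, the committed step, fell by 0.59 ± 0.13 on 1 probe (adjusted p = 0.016) and differed by −0.34 on the other (adjusted p = 0.091). Tigar, which lowers fructose-2,6-bisphosphate, rose by 0.70 ± 0.15 on 1 probe (adjusted p = 0.017), and its dimmer probe differed by 0.03 (adjusted p = 0.97). Ldhb, the lactate dehydrogenase subunit that favours pyruvate, fell by 0.56 ± 0.14 (adjusted p = 0.024). Hk1, the most widespread hexokinase, read 2.58 and 2.20 in untreated 1 and 3 and 2.50 to 2.68 in the exosome arrays, but its spot on untreated 2 read −8.23, not above background, and the difference of 3.72 ± 2.76 did not pass (adjusted p = 0.31). Of the isozymes known from germ cells, Gapdhs fell by 0.86 ± 0.22 (adjusted p = 0.024), Pgk2 was above background on 1 array and Ldhc on 0.

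Among 11 transporters of glucose and lactate, all tested, 1 fell and 1 rose, below the 29.0% and 14.6% of all tested genes, with a list median of −0.04. Median centring gave 1 lower and 3 higher (median 0.37). Slc2a1, the main glucose transporter of most cells, read 2.13, 1.98 and 1.91 in the untreated arrays and 1.90, 2.06 and 2.01 in the exosome arrays. The groups overlapped, and the difference was −0.01 ± 0.12 (adjusted p = 0.93), a value that was above 0 under median centring (0.40). Slc16a1, a monocarboxylate transporter that carries lactate, read 0.58, 0.69 and 0.56 against 1.01, 1.03 and 1.11, without overlap, and rose by 0.44 ± 0.11 (adjusted p = 0.022). Slc16a3, the lactate exporter of glycolytic cells, differed by 0.37 ± 0.19 (adjusted p = 0.16). Bsg, basigin, the partner that brings these transporters to the membrane, read 3.07, 3.18 and 3.40 against 2.14, 2.53 and 2.23 and fell by 0.92 ± 0.16 (adjusted p = 0.011).

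Genes that govern the entry of pyruvate into mitochondria were 3 higher and 3 lower of 11 tested, beside 14.6% and 29.0% of all tested genes, with a list median of 0.22. Median centring gave 6 and 2 (median 0.63). Pdk2 and Pdk3, kinases that switch pyruvate dehydrogenase off, fell by 1.20 ± 0.23 (adjusted p = 0.013) and 1.25 ± 0.22 (adjusted p = 0.012). Pdk1 had all exosome arrays below the untreated ones but missed the test (−0.49 ± 0.17, adjusted p = 0.054). Pdp1 and Pdp2, the phosphatases that switch the complex on, rose by 0.64 ± 0.14 (adjusted p = 0.018) and 0.40 ± 0.13 (adjusted p = 0.044). Pdha1, a subunit of the complex, read 2.04, 1.22 and 1.23 in the untreated arrays and 3.04, 2.30 and 3.09 in the exosome arrays, and rose by 1.31 ± 0.31 (adjusted p = 0.019) and by 0.69 on its other probe (adjusted p = 0.015). The third gene that fell was Dlat, named here after its value was seen, another subunit of the complex, at −0.49 ± 0.16 (adjusted p = 0.047).

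Of the genes of gluconeogenesis and glycogen, 3 were higher and 5 lower of 12 tested (list median −0.45), beside 14.6% and 29.0% of all tested genes. Quantile normalization gave 4 and 3 (median −0.18) and median centring 5 and 1 (median −0.04). Pgm1, which links glucose-1-phosphate to glucose-6-phosphate, fell by 1.07 ± 0.20 (adjusted p = 0.012) and Gbe1, the glycogen branching enzyme, by 0.74 ± 0.18 (adjusted p = 0.020). Ugp2, which makes UDP-glucose, rose by 0.58 ± 0.12 (adjusted p = 0.015) and Pygl, a glycogen phosphorylase, by 0.75 ± 0.19 (adjusted p = 0.024). Gys1, glycogen synthase, gave opposite results on its probes, 1.004 ± 0.27 on the brighter (adjusted p = 0.027) and −0.97 on the dimmer (adjusted p = 0.044). In the pentose phosphate pathway, which draws glucose-6-phosphate away to make NADPH and ribose, 3 genes were higher and 2 lower of 7 tested (list median 0.27), again beside 14.6% and 29.0%. Median centring gave 4 higher and 0 lower (limma; 0 lower at an unadjusted p below 0.05 too), with a median of 0.68. Rpia, ribose-5-phosphate isomerase, rose by 1.17 ± 0.23 (adjusted p = 0.013), Taldo1, transaldolase, by 0.70 ± 0.17 (adjusted p = 0.022) and Rpe by 0.34 ± 0.11 (adjusted p = 0.041), whose other probe differed by 0.20. Pgls, which opens the lactone ring early in the pathway, fell by 0.52 ± 0.12 (adjusted p = 0.018) and H6pd by 0.70 ± 0.21 (adjusted p = 0.038), whose other probe differed by 0.14.

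Hypoxia-inducible factors and other hypoxia genes were 2 higher and 6 lower of 22 tested, shares no larger than the 14.6% and 29.0% of all tested genes, with a list median of −0.06. The counts were 4 and 3 under quantile normalization and 9 and 1 under median centring. Hif1a, the oxygen-regulated subunit, differed by −0.09 ± 0.28 (adjusted p = 0.82), with groups that overlapped and a sign that turned under quantile normalization (0.01) and median centring (0.32). Hif1an, a hydroxylase that restrains it, fell by 1.08 ± 0.19 (adjusted p = 0.012), with 2 of 3 exosome arrays above background. Ndrg1, known to be induced in hypoxia, fell by 0.71 ± 0.19 (adjusted p = 0.026), as did the collagen prolyl hydroxylase P4ha2, by 0.49 ± 0.14 (adjusted p = 0.030). Adm, adrenomedullin, rose by 0.53 ± 0.14 (adjusted p = 0.026). Vegfa, the vascular growth factor, rose by 0.44 ± 0.13 on its brightest probe (adjusted p = 0.033), fell by 0.61 on another (adjusted p = 0.013), and differed by −0.28 and −0.04 on the remaining probes.

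Over these 6 lists together, 14 genes (16.9%) were higher and 24 (28.9%) lower of 83 tested, close to the shares over all tested genes (14.6% and 29.0%). Quantile normalization gave 21 and 14, and median centring 35 and 6. The shares of all tested probes moved too, and the counts of each list above stand beside them. They were 16.7% higher and 16.5% lower under quantile normalization, and 27.1% and 8.86% under median centring. Leaving out untreated 2 or untreated 3 left 0 higher (limma; 11 and 13 at an unadjusted p below 0.05) and 4 lower. Leaving out exosome 1 gave 1 higher and 7 lower, exosome 3 gave 5 and 14, untreated 1 gave 13 and 16, and exosome 2 gave 17 and 25.

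**Figure D4:**
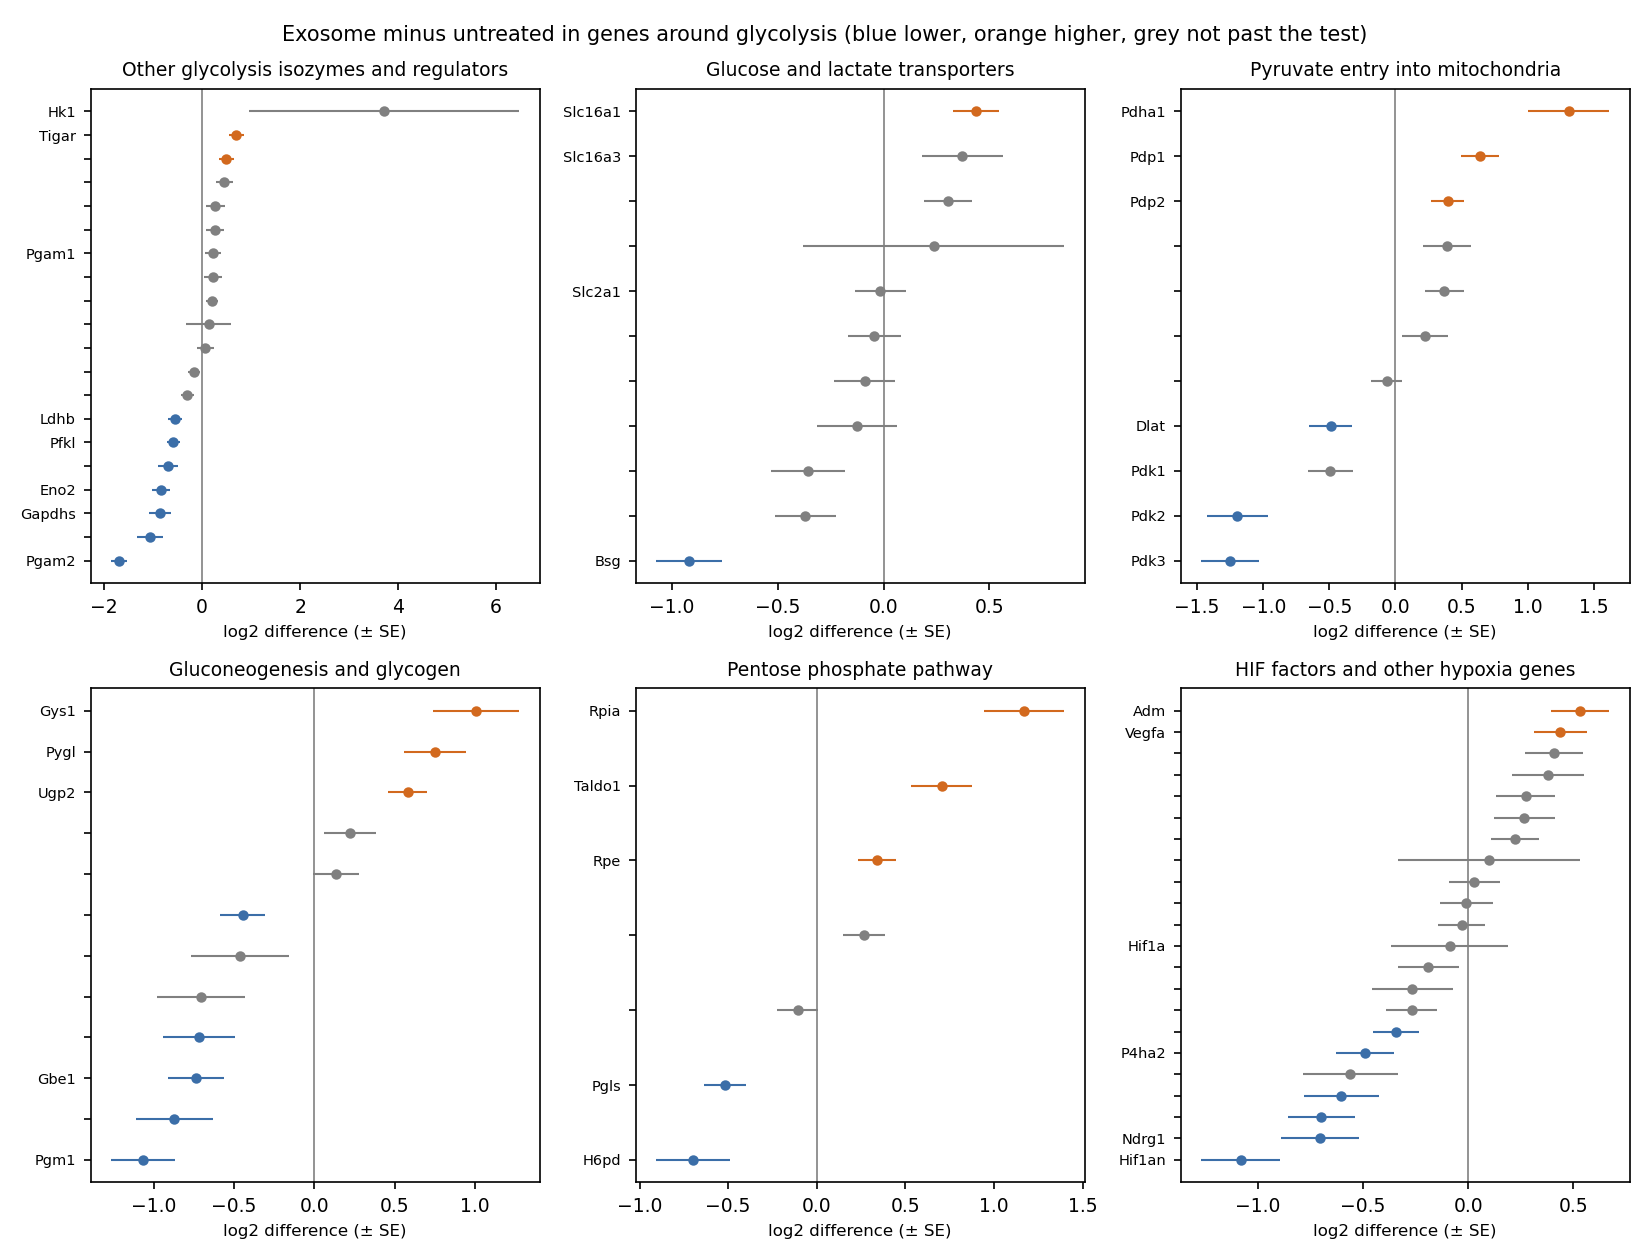
Each panel is 1 list of genes around glycolysis, with a row per tested gene (symbols for those named in the text), the log2 difference (exosome minus untreated) on the x axis and bars of ± SE. Blue points passed the limma test as lower, orange as higher, and grey did not pass. In each panel except that of the transporters at least 2 genes passed in each direction, and the long bar of Hk1 comes with 1 untreated spot that was not above background.

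Markers of cells that a Leydig cell culture can hold were read beside these results. Of the Leydig cell markers, 0 of 7 tested passed as higher (limma; 0 passed at an unadjusted p below 0.05 as well) and 2 as lower. All tested genes had shares of 14.6% and 29.0%. Median centring gave 2 higher and 0 lower in this list (limma; 1 lower at an unadjusted p below 0.05). Cyp11a1, which starts steroid synthesis, fell by 0.86 ± 0.12 (adjusted p = 0.010), and Insl3, a Leydig cell hormone, differed by −0.29 ± 0.14 (adjusted p = 0.13), a value that turned to 0.13 under median centring. Lhcgr and Nr5a1, further defining genes of Leydig cells named after their values were seen, were above background on 0 of 6 arrays. The summed level of 10 Leydig cell markers, in multiples of the 75th percentile, was 121 to 127 in untreated and 120 to 146 in exosome arrays, which overlapped. Most of this sum on every array came from Hsd3b1, Hsd11b1 and Star, named after their values were seen. These did not pass the test (0.18, 0.21 and −0.26), and the sum says little about the other Leydig cell markers. The 6 peritubular myoid markers summed to 43.4 to 46.6 in untreated and 27.4 to 34.2 in exosome arrays, without overlap. Of the 6, all tested, 3 passed as lower and 0 as higher, beside 29.0% and 14.6% of all tested genes. The list median was −0.55. Median centring gave 0 lower (limma; 0 at an unadjusted p below 0.05 too). Acta2, smooth muscle actin, missed the test (−0.44 ± 0.20, adjusted p = 0.11). The 10 macrophage markers on the arrays summed to 21.7 to 23.3 and 12.7 to 22.5, which overlapped. The sum of 12.7 was that of exosome 3, where the spot of Cd68, a bright member of this sum, read −3.45. Of the 10 macrophage markers, all tested, 2 passed as lower and 0 as higher (limma; 1 higher at an unadjusted p below 0.05). All tested genes had shares of 29.0% and 14.6%. The 2, named after their values were seen, were Cx3cr1 (−1.94 ± 0.40, adjusted p = 0.014) and Adgre1 (−0.52 ± 0.16, adjusted p = 0.038). Median centring gave 1 lower and 2 higher in this list. Within the Sertoli, endothelial and germ cell lists, genes went both ways, and those named next other than Pecam1, Amh and Ddx4 were picked after their values were seen. The 10 Sertoli cell markers summed to 37.3 to 44.1 and 30.4 to 36.2. Of 8 tested, 1 fell (Clu, a bright probe, −1.02 ± 0.18, adjusted p = 0.012) and 1 rose (Wt1, 0.49 ± 0.14, adjusted p = 0.032). All tested genes had shares of 29.0% lower and 14.6% higher. The Wt1 value is of its brightest probe, and its other probes passed as lower (−1.16, adjusted p = 0.020, and −1.09, adjusted p = 0.012). The list median was 0.17, and Amh was at 0 of 6 arrays. The 5 endothelial markers summed to 0.615 to 0.812 in untreated and 1.07 to 1.43 in exosome arrays, and most of this sum on every array was Pecam1. Pecam1 (1.02 ± 0.19, adjusted p = 0.013) and Kdr (0.67 ± 0.15, adjusted p = 0.018) rose, Cdh5 fell (−0.45 ± 0.15, adjusted p = 0.048), and Tek and Tie1 were above background on 0 arrays. The 9 germ cell markers summed to 1.64 to 1.75 and 2.08 to 2.50, with Ddx4 at 0 of 6 arrays. Most of this sum on every array was the brighter probe of the single gene Odf2. Of 3 tested, 1 was higher and 1 lower, beside 14.6% and 29.0% of all tested genes, and the list median was −0.03. Odf2, the brightest, rose on its brighter probe (0.46 ± 0.12, adjusted p = 0.028) and fell on its dimmer probe (−0.46, adjusted p = 0.0497). Prm2 fell (−0.46 ± 0.14, adjusted p = 0.041, but 0.02 under quantile normalization). The macrophage marker Cd68 read 3.15 to 3.46 on 5 arrays and −3.45 on exosome 3, and its difference did not pass (adjusted p = 0.31). The part of these markers in the glycolysis results was not tested.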

How the data were processed

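RNA of 6 samples of rat Leydig cells, 3 with and 3 without exosomes, was read on one-colour Cy3 arrays. Per the file headers, the deposited intensity is the processed signal of Agilent Feature Extraction 11.0.1.1, corrected for background within each array, with no step that sets arrays on a common scale. The authors deposited a table of log2 values as well. Its 6 columns share 1 median (5.68) and 1 maximum (17.0) and correlate with their own arrays at r of 0.996 or above, so they look quantile normalized, a step that is not given in the sources used here; the table served as an alternative. Symbols came from a RefSeq table of rat assembly GRCr8 for 18005 probes, and 12362 probes had none. The array was designed on another build, so no probe positions are given.

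Control spots and outlier-marked spots (388 to 572 gene spots per array) were left out, spots of a probe were averaged as log2, and the 75th percentile over gene spots of each array was subtracted. A probe was tested if well above background on at least 3 of 6 arrays (20433 probes, 10979 genes), with limma 3.58.1 in R 4.3.3, lmFit and eBayes (prior df 2.62), Benjamini-Hochberg over all tested probes, and a threshold of 0.05. For lists, a gene was its tested probe of highest mean signal. Python 3.11.15, pandas 2.3.3, numpy 2.4.6, scipy 1.17.1 and matplotlib 3.10.9 made tables and figures. The limma fit was tested on simulated data with independent noise, few changed probes and no shift between groups. The choice of scaling and an effect of scan were outside that simulation. Having 3 arrays a group limits the precision.

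The members and lists were chosen with earlier results of these data known. Named genes were all member probes, of each list all genes past the test where 5 or fewer and otherwise the 5 of smallest p, and Slc2a1, Slc16a3, Hk1, Pgam1, Ldhb, Pdk1, Hif1a, Vegfa, Gapdhs, Pgk2, Ldhc and 7 cell markers whatever their values. Genes named outside it are marked, and some that the rule picks are not reported here but remain counted. Alternatives were quantile normalization, median centring, normexp with an offset of 50, the authors' table, no filter, above background on all 6 arrays, outlier spots kept, a replicate block, scan as a random block, limma's trend and robust options, a 2-fold minimum, and leaving out each array. The percentile over probes was added after seeing the data. Normexp used the median foreground and background signals.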

Additional observations from a re-analysis of the deposited data

How the results depend on the processing

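With 3 arrays a group, the number of arrays limits what could pass, and the dim probes Pfkfb3 A_64_P014544 and Pkm A_64_P024077 are limited by signal over background. Glycolysis probes passed as lower in 7 cases and as higher in 0; median centring gave 0 and 1, the 2-fold minimum 1 lower, and leaving out 1 array 1 to 7 lower. Eno1 passed under every alternative run except median centring and the 2-fold minimum. Over all tested probes, 2344 were higher and 6289 lower. Median centring gave 5542 and 1810, the 2-fold minimum 288 and 1805, testing with no filter 1287 higher, quantile normalization 3369 lower, the authors' deposited log2 values 3399 lower, and leaving out 1 array 223 to 2534 higher and 1615 to 6424 lower. The cause of these shifts was not tested. By construction the fold minimum can only remove calls. Leaving out 1 array moved the lower calls either way, to 6424 without untreated 1 and to 1615 without untreated 2.

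Of the 52 list genes that had passed, signs turned under another scaling for Epas1 and Prm2, picked after their values were seen. Epas1 A_44_P177807 was 0.15 with quantile normalization, 0.14 with the authors' values and 0.067 with median centring, and Prm2 A_64_P078880 was 0.015 with quantile normalization and 0.012 with the authors' values. Among the named genes and probes, the other signs that turned were of values that had not passed. Median centring gave 0.28 and 0.27 for the Tpi1 probes A_42_P673370 and A_64_P065922, 0.18 and 0.26 for Gapdh A_64_P052510 and A_64_P232432, 0.29 for Ldha, 0.40 for Slc2a1, 0.32 for Hif1a and 0.13 for Insl3. Pfkfb3 A_64_P014544 was −0.10 with normexp and ranged from −0.10 to 0.76 with 1 array left out. Slc2a1 A_42_P684538 was 0.079 with the percentile over probes, an alternative chosen after seeing the data, and ranged from −0.062 to 0.046 with 1 array left out. Hif1a A_64_P081874 was 0.013 with quantile normalization, 0.013 with the authors' values and 0.00614 with the percentile over probes, and ranged from −0.35 to 0.12 with 1 array left out.

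With the replicate number as a block, 6 glycolysis probes passed as lower and 0 as higher, without Gpi, over all probes 1191 were higher and 4779 lower, and over the 6 lists of other metabolic genes 8 were higher and 13 lower. Samples of the same number did not deviate together (correlations −0.09, −0.03 and −0.02), so the numbers were not taken to pair the samples.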

Other observations

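Single spots stood far from the other arrays for 3 of the genes above, all chosen after their values were seen. Gpi read 12.3 units on exosome 3, Hk1 read −8.23 on untreated 2 on the log2 scaled scale, and Cd68 read −3.45 on exosome 3. The Gpi spot carried an outlier mark in the file, and the spots of Hk1 and Cd68 did not.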
